A study of Mus musculus with 10 samples.

Results

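The 9 transcription regulators described here are Sox6, Prox1, Tbx15, Six4, Eya1, Vgll2, Mef2a, Mef2c and Mef2d, which were listed by name for their roles in muscle fiber type, with no threshold on their values. The choice was made with earlier results of these data known. They make up 9 of the 54232 genes of the deposited RNA-seq table. The samples are labelled gastrocnemius, a calf muscle that in mice consists mostly of fast fibers, but the paper speaks in other places of gastrocnemius together with the neighbouring plantaris, so the share of each muscle in the RNA is unknown. They came from 5 homozygous desmin knock-out mice (Des -/-) and 5 wild-type littermates (Des wt/wt) at 3 months of age, none of them treated. The labels give all 10 mice the same congenic strain, with B6J as the recipient, 129Sv as the donor and Destm1Cba/Cscl as the allele. The knock-out is carried in the germline and is not restricted to muscle fibers. The values are regularized log (rlog) values of DESeq2, which are on a log2 scale, adjusted for library size and shrunken towards each gene's mean, so that a difference understates the log2 fold change of counts. They do not show how many reads lie behind a value, so the depth is unknown. The sample titles name 1 mouse each, and each mouse was used as 1 replicate. The paper's methods, however, describe the RNA of 5 muscles per genotype as pooled. Had the libraries been made from a pool, the p-values given here would not measure variation among mice.

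Skeletal muscle fibers are slow or fast depending on which myosin, troponin and calcium-handling genes they express, and transcription factors set and maintain this choice. SIX4 binds DNA together with EYA co-activators and helps to switch on fast-fiber genes. SOX6 represses slow-fiber genes in fast fibers, TBX15 is a T-box factor of glycolytic fast fibers, and PROX1 is a homeobox factor that supports the slow program. VGLL2 is a muscle-specific cofactor of the TEAD factors that also acts on the slow program, and the MEF2 proteins, held in check by class II histone deacetylases and released by calcium signals through calcineurin and kinases, activate many muscle genes.

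In desmin knock-out muscle, Prox1, Vgll2 and Six4 were higher and Sox6 and Tbx15 were lower than in wild-type muscle, whereas Eya1 and the 3 Mef2 genes did not pass the test (limma, adjusted p under 0.05 over 14289 tested genes). All 9 regulators had passed the limit on low values, which was a mean over the 10 mice of at least log2 of 10. Called were therefore 5 of 9 regulators (55.6%), compared with 13.7% of all tested genes. Since the regulators were chosen with earlier results of these data known, the share of 55.6% is a description only. In the knock-out 3 were higher, where 7.7% of all tested genes were, and 2 were lower, where 5.99% of all tested genes were. In the same 5 regulators the knock-out and wild-type values did not overlap, which was the case for 14.4% of all tested genes. The median absolute difference of the 9 regulators was 0.40 on the log2 scale, and that of all tested genes was 0.17. The signed median differences were 0.06 for the regulators and -0.0029 for all tested genes. Since RNA of whole muscle was sequenced, fewer cells of a type and less RNA per cell cannot be told apart in any of these results.

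**Figure D1:**
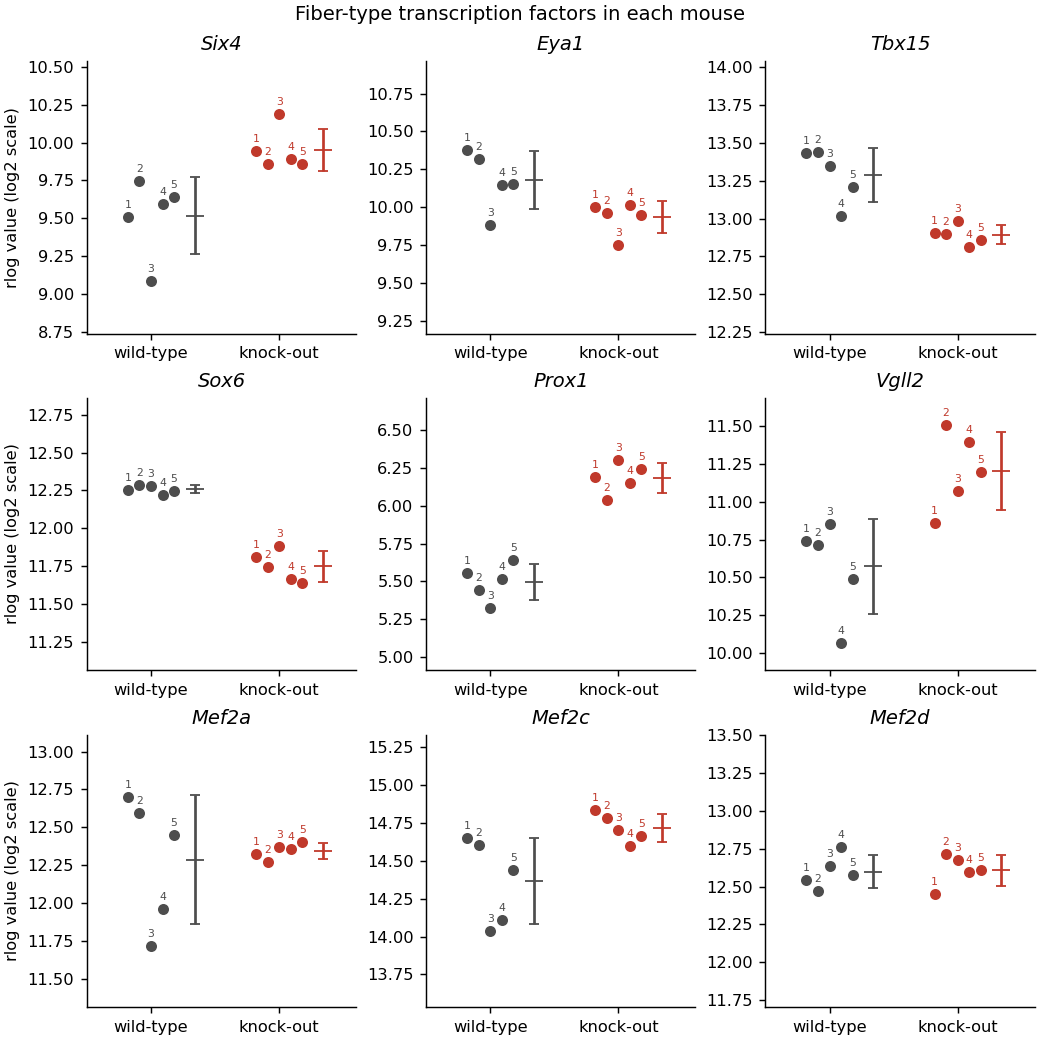
Points show the deposited rlog value (log2 scale, vertical axis) of each of the 9 regulators in each wild-type (grey) and desmin knock-out (red) mouse, numbered 1 to 5, with the mean and SD of the 5 mice beside them. Every axis spans the same range but is centred on its own gene. The groups are apart for Six4, Tbx15, Sox6, Prox1 and Vgll2 and overlap for Eya1, Mef2a, Mef2c and Mef2d.

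The targeted gene Des, which encodes the muscle intermediate filament desmin, had values of 16.10 to 17.74 in the wild-type and 11.76 to 11.89 in the knock-out libraries, which did not contradict any label. Wild-type mouse 3 stood apart from the other libraries. It correlated with its own group at a mean of 0.982, where the other wild-type libraries reached 0.989 to 0.991 and the knock-out libraries 0.996 to 0.997, and its summed linear values were 1.48 times the median of all mice. All 6 myofiber markers were detected with a high summed level, from 21.88 to 22.09 in knock-out and from 22.19 to 23.06 in wild-type mice (log2 of the summed linear values). Without wild-type mouse 3 the same 5 regulators passed and Eya1 did as well (limma).

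Start regions of 3 regulators that differed between the genotypes are shown, so that the genes behind the values can be located. RefSeq promoter sequences (GRCm38.p6) were found for 7 of the 9 regulators with 16 start sites, and the 250 bases before the start are printed from 5′ to 3′ on the strand of the gene. Capitals mark E-boxes, the CANNTG motif with any 2 bases in its middle. The motif reads the same on both strands, and 66.2% of all 32851 RefSeq windows of this length hold at least 1. MyoD and related factors bind E-boxes, but which factors bind the forms marked here was not tested. The Prox1 window lies at chr1:190170828-190171077 on the reverse strand, the Vgll2 window at chr10:52022252-52022501 on the forward strand and the Sox6 window at chr7:116031048-116031297 on the reverse strand.
Prox1: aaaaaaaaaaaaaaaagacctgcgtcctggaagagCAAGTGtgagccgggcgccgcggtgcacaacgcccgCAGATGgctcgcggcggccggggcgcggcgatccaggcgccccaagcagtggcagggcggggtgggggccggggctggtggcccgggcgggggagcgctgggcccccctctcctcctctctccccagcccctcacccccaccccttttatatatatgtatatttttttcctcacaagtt
Vgll2: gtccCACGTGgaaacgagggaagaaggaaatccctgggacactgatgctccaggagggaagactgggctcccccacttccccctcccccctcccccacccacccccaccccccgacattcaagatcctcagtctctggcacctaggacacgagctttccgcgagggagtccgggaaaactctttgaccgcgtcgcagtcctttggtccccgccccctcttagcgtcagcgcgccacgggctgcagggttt
Sox6: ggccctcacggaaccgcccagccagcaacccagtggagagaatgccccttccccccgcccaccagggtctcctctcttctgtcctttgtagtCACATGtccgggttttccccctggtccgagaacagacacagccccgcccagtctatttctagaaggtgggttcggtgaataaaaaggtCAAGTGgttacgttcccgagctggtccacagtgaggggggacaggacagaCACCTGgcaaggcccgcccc
The Prox1 window has E-boxes that begin 215 and 179 bases before the start, the Vgll2 window has 1 that begins 246 bases before it, and the Sox6 window has 3 that begin 158, 70 and 20 bases before it. Sox6 has 6 annotated starts and this window was chosen because no exon of GENCODE M21 reaches into it. The window of a second Prox1 start and both Six4 windows lacked the motif, and the other Sox6 windows held 1 or 2 each. Of the regulators without a call, Mef2a and Mef2d lacked it in their single windows, and the 3 Mef2c windows held 2, 0 and 1. All printed windows hold the motif, so they cannot show whether it goes with a difference between the genotypes. The match is a description of these letters only, and which start is used in this muscle was not measured.

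Of all 9 regulators, Sox6 had the tightest wild-type values. Sox6 (ENSMUSG00000051910, chromosome 7, 115470872 to 116038796 on the reverse strand of GRCm38) had 11.81, 11.74, 11.88, 11.67 and 11.64 in knock-out mice 1 to 5 and 12.25, 12.28, 12.28, 12.22 and 12.25 in wild-type mice 1 to 5. Every knock-out mouse was below every wild-type mouse, with a gap of 0.34 between the groups. The means of 11.75 ± 0.10 (SD, n = 5) and 12.26 ± 0.03 (SD, n = 5) gave a log2 difference of -0.51 with a standard error of 0.08 (95% interval -0.68 to -0.34, adjusted p = 0.000693 from limma). An exact permutation test of the 10 values (two-sided) gave p = 0.00794, the smallest that 5 against 5 mice allow. The fall kept its call in 18 of 18 alternative fits, between -0.57 and -0.45. Sox6os, an antisense gene within Sox6, had a mean of 6.41 and a log2 difference of -0.65 (limma, adjusted p = 0.00953), and since the strand setting of the counting is not given in the sources used here, reads of the overlap cannot be told apart.

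Prox1 moved in the opposite direction and had the largest difference of the 9 regulators, although that of Vgll2 was larger in 4 of 18 alternative fits. Prox1 (ENSMUSG00000010175, chromosome 1, 190118035 to 190170714, reverse strand) had 6.19, 6.04, 6.30, 6.15 and 6.24 in knock-out mice 1 to 5 and 5.56, 5.44, 5.33, 5.52 and 5.64 in wild-type mice 1 to 5. All knock-out mice lay above all wild-type mice and the gap of 0.40 was the widest among the regulators. The means of 6.18 ± 0.10 (SD, n = 5) and 5.50 ± 0.12 (SD, n = 5) differed by 0.69 on the log2 scale with a standard error of 0.11 (95% interval 0.46 to 0.91, adjusted p = 0.000594 from limma). Only 5.19% of all tested genes had a larger absolute difference. The exact permutation test gave p = 0.00794, and the call held in 18 of 18 alternative fits with differences from 0.61 to 0.72. Prox1 lies on the chromosome of Des, but 115 Mb away from it.

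PROX1 is also the factor that defines lymphatic endothelium, so markers of these vessels are given beside it. Of 6 lymphatic markers, 5 were tested, 1 was higher (Reln, log2 difference 0.71, adjusted p = 0.00696 from limma) and none was lower. Among all tested genes, 7.7% were higher and 5.99% lower. At an unadjusted p under 0.05 there were 3 of the markers (limma). The other 4 tested markers had no call (limma), with log2 differences of -0.49 for Flt4 (adjusted p = 0.0575), -0.26 for Lyve1 (adjusted p = 0.562), 0.38 for Pdpn (adjusted p = 0.0721) and 0.29 for Mmrn1 (adjusted p = 0.345). The median of the list was 0.29, and the chemokine gene Ccl21a had the value 0 in all 10 mice. The summed level of the list ranged from 8.55 to 8.83 in knock-out and from 8.30 to 9.06 in wild-type mice, and these ranges overlapped. The part of lymphatic vessels in the Prox1 result was not tested.

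Tbx15, the T-box factor of glycolytic fibers, fell in the knock-out. Tbx15 (ENSMUSG00000027868, chromosome 3, 99240381 to 99354259, forward strand) had 12.91, 12.90, 12.98, 12.81 and 12.86 in knock-out mice 1 to 5 and 13.43, 13.44, 13.35, 13.02 and 13.21 in wild-type mice 1 to 5. The groups did not overlap, but the lowest wild-type mouse, mouse 4, was only 0.033 above the highest knock-out mouse. The means of 12.89 ± 0.06 (SD, n = 5) and 13.29 ± 0.18 (SD, n = 5) gave a log2 difference of -0.40 with a standard error of 0.10 (95% interval -0.61 to -0.19, adjusted p = 0.0163 from limma, p = 0.00794 in the exact permutation test). The call was lost without knock-out mouse 4 (log2 difference -0.38, limma, adjusted p = 0.0513) and without the limit on low values (adjusted p = 0.058), and it held in 16 of 18 alternatives.

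Six4 and Eya1, which encode partners of one complex on DNA, had differences of opposite sign, of which that of Six4 passed the test. Six4 (ENSMUSG00000034460, chromosome 12, 73099609 to 73113456, reverse strand) had 9.95, 9.86, 10.19, 9.89 and 9.86 in knock-out mice 1 to 5 and 9.51, 9.75, 9.09, 9.60 and 9.64 in wild-type mice 1 to 5. All knock-out mice were above all wild-type mice, with mouse 3 of the knock-out the highest and mouse 3 of the wild-type the lowest. The means were 9.95 ± 0.14 (SD, n = 5) and 9.52 ± 0.25 (SD, n = 5) and the log2 difference was 0.43 with a standard error of 0.12 (95% interval 0.17 to 0.70, adjusted p = 0.0333 from limma, p = 0.00794 in the exact permutation test). Without wild-type mouse 3 the difference was 0.33 (limma, adjusted p = 0.0189). The call was lost in 9 of 18 alternatives, among them the omission of any single knock-out mouse or of wild-type mouse 1 (limma, adjusted p from 0.0552 to 0.0889), while the difference stayed between 0.28 and 0.49 in all of them.

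Eya1 (ENSMUSG00000025932, chromosome 1, 14168954 to 14310235, reverse strand), a co-activator and phosphatase, had 9.998, 9.96, 9.75, 10.01 and 9.95 in knock-out mice 1 to 5 and 10.38, 10.32, 9.89, 10.15 and 10.16 in wild-type mice 1 to 5. Wild-type mouse 3 was below 4 of the 5 knock-out mice, while the other wild-type mice were above all of them. The means were 9.93 ± 0.11 (SD, n = 5) and 10.18 ± 0.19 (SD, n = 5), with a log2 difference of -0.24, a standard error of 0.10 and no call (95% interval -0.47 to -0.02, adjusted p = 0.146 from limma, p = 0.0397 in the exact permutation test). It passed in 3 of 18 alternatives, namely without wild-type mouse 3 (-0.32, limma, adjusted p = 0.0156), with sample weights (-0.33, adjusted p = 0.00143) and with a covariate made of 4 Y-linked transcripts (-0.34, adjusted p = 0.0126). The gene lies 61.1 Mb from Des on the same chromosome.

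Vgll2, the TEAD cofactor, was higher in the knock-out, though its mice varied more than those of most other regulators. Vgll2 (ENSMUSG00000049641, chromosome 10, 52022502 to 52028471, forward strand) had 10.86, 11.51, 11.07, 11.39 and 11.20 in knock-out mice 1 to 5 and 10.74, 10.72, 10.85, 10.06 and 10.49 in wild-type mice 1 to 5. The groups were apart by no more than 0.003, between knock-out mouse 1 and wild-type mouse 3. The means of 11.21 ± 0.26 (SD, n = 5) and 10.57 ± 0.31 (SD, n = 5) differed by 0.63 on the log2 scale with a standard error of 0.16 (95% interval 0.29 to 0.97, adjusted p = 0.0164 from limma, p = 0.00794 in the exact permutation test). Without knock-out mouse 2, the highest of all mice, the difference was 0.56 and lost its call (limma, adjusted p = 0.0512), and without the limit on low values it lost it as well (adjusted p = 0.176). The other 16 alternatives kept it.

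The 3 Mef2 genes did not pass in any of the 18 alternative fits. Mef2c (ENSMUSG00000005583, chromosome 13, 83504034 to 83667080, forward strand) had 14.83, 14.78, 14.71, 14.60 and 14.66 in knock-out mice 1 to 5 and 14.65, 14.61, 14.04, 14.11 and 14.44 in wild-type mice 1 to 5. The groups overlapped through knock-out mouse 4 alone, and the other 4 of the knock-out group lay above every wild-type mouse. The means were 14.72 ± 0.09 (SD, n = 5) and 14.37 ± 0.28 (SD, n = 5), with a log2 difference of 0.35, a standard error of 0.13 and an interval from 0.06 to 0.63 (adjusted p = 0.101 from limma, p = 0.0238 in the exact permutation test). Without wild-type mouse 3 the difference was 0.27 (limma, adjusted p = 0.111).

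Mef2a (ENSMUSG00000030557, chromosome 7, 67231163 to 67372858, reverse strand) had 12.32, 12.27, 12.37, 12.36 and 12.40 in knock-out mice 1 to 5 and 12.70, 12.59, 11.72, 11.96 and 12.45 in wild-type mice 1 to 5. The wild-type mice surrounded the knock-out mice on both sides, with mice 1, 2 and 5 above and mice 3 and 4 below all of them. The SD was 0.05 in knock-out and 0.43 in wild-type mice, and the log2 difference of 0.06 had an interval from -0.30 to 0.41 (adjusted p = 0.848 from limma, p = 0.762 in the exact permutation test). Without wild-type mouse 3 the sign turned (-0.08, limma, adjusted p = 0.703).

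Mef2d (ENSMUSG00000001419, chromosome 3, 88142372 to 88172086, forward strand) had 12.45, 12.71, 12.68, 12.59 and 12.61 in knock-out mice 1 to 5 and 12.55, 12.47, 12.63, 12.76 and 12.58 in wild-type mice 1 to 5. The ranges of both groups overlapped almost entirely. The means were 12.61 ± 0.10 (SD, n = 5) and 12.60 ± 0.11 (SD, n = 5) and the log2 difference was 0.01, with the narrow interval from -0.18 to 0.20 (adjusted p = 0.95 from limma, p = 0.873 in the exact permutation test). The difference changed its sign, to -0.03, with median centring of the mice.

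**Figure D2:**
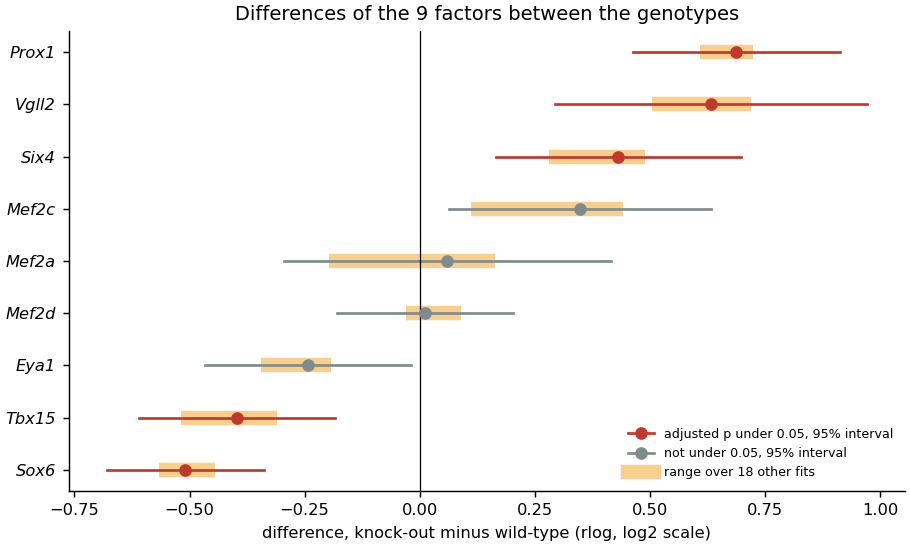
Points show the log2 difference (knock-out minus wild-type, horizontal axis) of each regulator from limma, lines its 95% interval and orange bands the range of the difference over 18 other fits, with red for an adjusted p under 0.05. The orange bands of Prox1, Vgll2, Six4, Tbx15 and Sox6 stay on one side of 0, as do those of Mef2c and Eya1, and those of Mef2a and Mef2d cross it.

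Viewed mouse by mouse, the separation by genotype was not shared by all regulators. Relative to the mean of all 10 mice, Sox6 was positive in every wild-type and negative in every knock-out mouse, and Prox1 the reverse. Wild-type mice 3 and 4 were the lowest 2 mice for both Mef2a and Mef2c, and they were also the 2 mice with the smallest weights when limma weighted the samples (0.1002 and 0.2747). Under sample weights the Mef2a and Mef2c differences were -0.20 and 0.11.

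**Figure D3:**
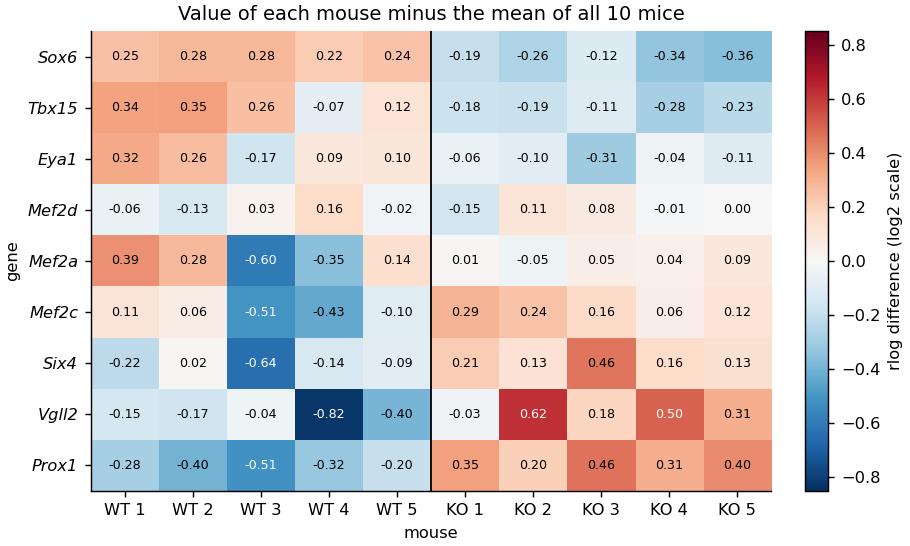
Cells show the rlog value of each mouse minus the mean of all 10 mice for that gene (log2 scale, colour and number), with wild-type mice (WT) left and knock-out mice (KO) right of the line and genes ordered by their difference. Sox6 and Prox1 split cleanly into signs by genotype, while Mef2a and Mef2c are lowest in wild-type mice 3 and 4.

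Levels of different genes were compared after subtraction of the log2 of the exon length in kb, with the exons of all transcripts merged, which can overstate the length of the transcript in use. On this scale Tbx15 was the most abundant regulator in wild-type muscle with 11.39 ± 0.18 (SD, n = 5), followed by Mef2c (10.40), Mef2d (10.02) and Vgll2 (9.85). Mef2a (8.41), Sox6 (8.37), Eya1 (7.21) and Six4 (6.08) came next, and Prox1 was the least abundant with 2.43 ± 0.12. Neighbours in this order whose wild-type values overlapped were Mef2c and Mef2d, Mef2d and Vgll2, and Mef2a and Sox6, and all other neighbours were apart. In the knock-out the level of Tbx15 was 10.99, that of Mef2c 10.74 and that of Vgll2 10.48, and Prox1 stayed the least abundant with 3.12.

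**Figure D4:**
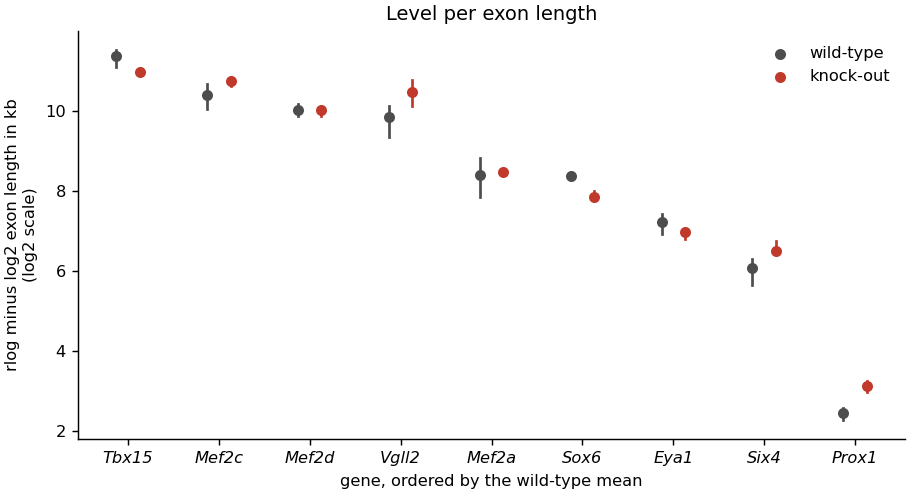
Points show the mean level of each regulator per exon length (rlog value minus log2 of the merged exon length in kb, vertical axis) in wild-type (grey) and knock-out (red) mice, and lines the lowest to highest mouse. The order runs from Tbx15 (11.39 in wild-type) to Prox1 (2.43), and between the genotypes the differences are small beside this span.

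For each called regulator, the 3 tested genes closest to it across the 10 mice were picked. Closeness was the mean absolute difference between the values of both genes after each was centred on its own mean. Being picked as the closest of 14289 tested genes, they are near by construction. A difference between the genotypes that both genes have also brings them closer, and shared regulation was not tested. The 3 closest tested genes were Exoc3l2 (0.0369), C2cd2 (0.0501) and Map2k6 (0.0648) for Sox6, and Tmeff1 (0.0593), Igdcc4 (0.0719) and Slc37a1 (0.0747) for Prox1. Those for Tbx15 were Kbtbd12 (0.0559), Eif4g1 (0.0583) and Tmcc1 (0.0606), and those for Six4 were A430110L20Rik (0.0508), Mfap1b (0.0624) and Parp4 (0.0657). Vgll2, which had the largest SD of the called regulators in both genotypes, had no gene as close. The nearest were Dnaja4 (0.1143), Siah2 (0.126) and Pqlc3 (0.1288).

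Slow-fiber genes, the program on which SOX6 and PROX1 act in opposite ways, are given from a list of 12 genes. All 12 were tested, 5 rose and 1 fell in the knock-out (limma), and the median log2 difference was 0.41. Over all tested genes the shares were the 7.7% and 5.99% given above, and the median was -0.0029. Tnnt1, the slow troponin T, had 13.32, 13.30, 13.64, 13.02 and 13.15 in knock-out mice 1 to 5 and 11.14, 11.50, 12.43, 11.46 and 11.41 in wild-type mice 1 to 5. It was higher in every knock-out than in any wild-type mouse, by 1.70 on the log2 scale (adjusted p = 8.53e-05 from limma, standard error 0.20) and by 1.91 without wild-type mouse 3. Casq2, the slow and cardiac calsequestrin that binds calcium in the sarcoplasmic reticulum, was higher by 1.01 without overlap (adjusted p = 0.00279 from limma, standard error 0.19). For the slow troponin I gene Tnni1 it was 0.91 (adjusted p = 0.0103 from limma, standard error 0.21), with wild-type mouse 3 inside the knock-out range. Myoz2 (0.85, limma, adjusted p = 0.0188) also rose, though its value in wild-type mouse 3 (14.08) was inside the knock-out range of 13.80 to 14.11. Mybpc1 (0.56, limma, adjusted p = 0.0456) rose as well, but lost its call in 13 of 19 alternatives, among them the omission of any single knock-out mouse. In contrast, Myl3, a slow myosin light chain, fell with a log2 difference of -0.998 (limma, adjusted p = 0.0143). Myh7, the slow myosin heavy chain that defines slow fibers, was among the 6 genes that did not pass, with a log2 difference of -0.05 (limma, adjusted p = 0.933).

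Of 14 fast-fiber genes, all tested, 3 fell and 1 rose (limma), where 5.99% of all tested genes were lower and 7.7% higher. The knock-out mean was lower for 12 of the 14 genes, and 9 had an unadjusted p under 0.05 in either direction (limma). The median log2 difference of the list was -0.41, and that of all tested genes was -0.0029. For the list it was -0.26 without wild-type mouse 3, -0.22 with the Y-linked covariate, -0.27 with sample weights and -0.12 with quantile normalization. Mybpc2, the fast myosin-binding protein C, had 16.77, 16.81, 16.83, 16.71 and 16.59 in knock-out mice 1 to 5 and 17.61, 17.74, 18.54, 17.71 and 17.35 in wild-type mice 1 to 5. All knock-out mice were below all wild-type mice, with a log2 difference of -1.05 (limma, adjusted p = 0.00258, standard error 0.19) or of -0.86 without wild-type mouse 3. Actn3, the fast-fiber alpha-actinin, fell, with a log2 difference of -0.97 (limma, adjusted p = 0.0196, standard error 0.25) and of -0.71 without wild-type mouse 3, whose value of 19.34 was far above those of the other wild-type mice. Myh4, the myosin of the fastest fibers, fell with a log2 difference of -0.71 (limma, adjusted p = 0.036), but lost its call in 12 of 19 alternatives. Conversely, Myh2, the myosin of fast oxidative fibers, rose by 0.77 (adjusted p = 0.0195 from limma, standard error 0.20). Only Mybpc2 kept its call in all 19 alternatives, and 2 fast-fiber genes passed when any single knock-out mouse was left out, since Myh4 and either Myh2 or Actn3 were lost.

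Of 20 relatives and partners of the regulators, 18 were tested, with a median log2 difference of -0.11, and only Dach2 was called, where 13.7% of all tested genes were (6 had an unadjusted p under 0.05, limma). The median moved to -0.06 without knock-out mouse 2 and to -0.04 with sample weights. Dach2, a corepressor that works with the SIX4 and EYA1 families, had 5.17, 5.21, 5.28, 5.18 and 5.59 in knock-out mice 1 to 5 and 7.17, 7.04, 6.19, 5.31 and 6.51 in wild-type mice 1 to 5. It was lower in the knock-out with a log2 difference of -1.16 (limma, adjusted p = 0.0143, standard error 0.28), though wild-type mouse 4 lay inside the knock-out range. The co-activator gene Eya4 had a log2 difference of -0.11 (limma, adjusted p = 0.747), and that of the SOX6 relative Sox5 was -0.12 (adjusted p = 0.599). Without wild-type mouse 3, 4 of these genes passed, among them Eya4 with a log2 difference of -0.31 (limma, adjusted p = 0.0491). Vgll1 and Mef2b were under the limit on low values.

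Of 16 genes that regulate MEF2 proteins or belong to the calcineurin pathway, 4 passed, with 3 higher and 1 lower, where 13.7% of all tested genes passed. The median log2 difference of the list was 0.08, and it was 0.006 with sample weights and 0.02 without knock-out mouse 3. Nfatc2, a transcription factor that calcineurin activates, had 9.93, 10.09, 9.54, 9.83 and 9.59 in knock-out mice 1 to 5 and 8.88, 8.60, 8.72, 9.26 and 8.95 in wild-type mice 1 to 5. It was higher in all knock-out mice, with a log2 difference of 0.91 (limma, adjusted p = 0.000589, standard error 0.14). Hdac9, a class II deacetylase that represses MEF2 activity, had 8.31, 8.47, 8.06, 8.52 and 8.70 in knock-out mice 1 to 5 and 7.68, 7.47, 6.94, 7.11 and 7.67 in wild-type mice 1 to 5. It was also higher without overlap, with a log2 difference of 1.04 (limma, adjusted p = 0.000799, standard error 0.16). Mapk14, the p38 alpha kinase that phosphorylates MEF2 proteins, was lower in all knock-out mice (log2 difference -0.43, adjusted p = 0.00582 from limma, standard error 0.09), and Ppp3ca, a catalytic subunit of calcineurin, was higher (0.54, adjusted p = 0.0193).

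Of 14 genes known as targets of MEF2 proteins, all tested, only Hspb7 passed, compared with 13.7% of all tested genes. The median log2 difference was -0.13, and it turned to 0.07 without wild-type mouse 1. Hspb7, a small heat shock protein of striated muscle, had 15.68, 15.79, 15.56, 15.80 and 15.90 in knock-out mice 1 to 5 and 14.48, 14.69, 15.12, 14.35 and 14.51 in wild-type mice 1 to 5. It was higher in every knock-out mouse, with a log2 difference of 1.11 (limma, adjusted p = 0.00015, standard error 0.14). At an unadjusted p under 0.05 there were 5 genes of this list.

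**Figure D5:**
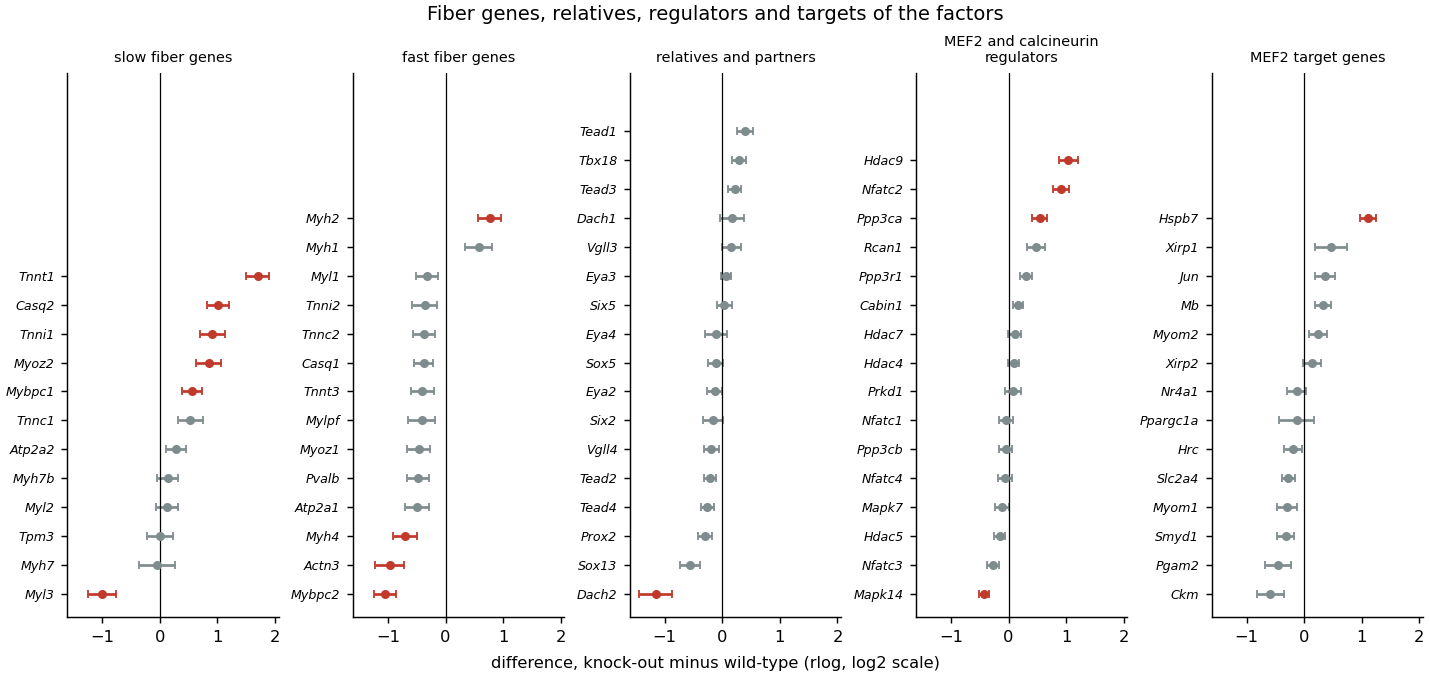
Points show the log2 difference (knock-out minus wild-type, horizontal axis) with its standard error for tested genes of 5 lists, in red for an adjusted p under 0.05 (limma). Slow-fiber genes lie mostly right of 0 with Tnnt1 at 1.70, fast-fiber genes mostly left of it with Mybpc2 at -1.05, and the other lists are spread around it.

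Some marker genes of other cell types in muscle also differed between the genotypes, and their part in the results above was not tested. For comparison, 7.7% of all tested genes were higher and 5.99% lower. Of 6 endothelial markers, 4 fell and none rose (limma), with a summed level from 11.68 to 12.17 in knock-out and from 12.17 to 12.57 in wild-type mice. Of 6 fibroblast markers, 3 rose and none fell, with ranges that overlapped (13.62 to 14.24 in knock-out, 13.18 to 14.16 in wild-type mice). The satellite cell markers had 1 gene of 5 higher (Chodl, log2 difference 0.89, adjusted p = 0.00252 from limma) and a summed level from 10.64 to 10.76 in knock-out and from 10.37 to 10.92 in wild-type mice. None of the markers of macrophages (6), smooth muscle (4) and Schwann cells (4) passed in limma, and none had an unadjusted p under 0.05, with overlapping ranges of the summed level (9.49 to 9.91 against 9.45 to 9.95, 11.79 to 12.45 against 11.94 to 13.05, and 10.85 to 11.32 against 10.56 to 11.37). Of the 6 myofiber markers, 1 fell and none rose, but all 6 means were lower in the knock-out. Their summed level ranged from 21.88 to 22.09 in knock-out and from 22.19 to 23.06 in wild-type mice, without overlap. Myh4, Tnnt3 and Pvalb of these markers are also fast-fiber genes of the list above, and Ckm is also a listed MEF2 target.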

How the data were processed

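Gastrocnemius RNA (per the labels; the paper also names plantaris) of 5 desmin knock-out and 5 wild-type mice was sequenced with a stranded mRNA kit. According to the submitters' processing notes (cutadapt 2.5, STAR 2.5.4a, Subread 1.6.1 with featureCounts, DESeq2, GRCm38), reads were trimmed, aligned and counted per gene. The table has 10 columns, 1 per mouse, although the methods describe RNA as pooled from 5 muscles of a genotype. The authors deposited log2 values, DESeq2's rlog, for 54232 genes, of which 26079 are at 0 in all mice. The settings of rlog and the strand setting of counting are not given in the sources used here, and shrinkage cannot be undone.

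With limma 3.58.1 in R 4.3.3, those genes were tested whose mean over the mice reached log2(10) (two-sided, a prior variance that follows the mean, Benjamini-Hochberg adjustment over 14289 genes, called at an adjusted p under 0.05). Single regulators were also compared with exact permutation tests. Positions and exon lengths came from GENCODE M21. The fit was tested on simulated data with planted changes. Alternatives changed the limit (none, or log2(50)), the scaling (quantile normalization or median centring), the prior variance (without a trend), the weights (limma's sample weights), the model (a replicate block, or a covariate made of 4 Y-linked transcripts), the mice (omission of 1 at a time) and the threshold (adjusted p under 0.01).

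The regulators and lists were chosen with earlier results of these data known. Named were the 9 regulators, from each list at most the 3 called genes of smallest adjusted p, Eya4, Sox5 and 1 gene that is not reported here, and the 3 genes most like each called regulator. Other genes that are given with values were named after these had been seen, as was the Sox6 start.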

Additional observations from a re-analysis of the deposited data

Results flagged for a closer look

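For 23 genes, the regulators and the other genes named by rule, each genotype was searched for 1 mouse far from the remaining 4, and of these 46 groups 5 had such a mouse (chance gives about 2.3). Wild-type mouse 3, the library that also stood apart over all genes, accounts for 2 of them. Its Tnnt1 value was 12.43, while the others of its genotype had 11.14 to 11.50, and its Actn3 value was 19.34, while the others had 17.92 to 18.24. Knock-out mouse 3 was the highest knock-out mouse for Six4 with 10.19 (the others 9.86 to 9.95) and the lowest for Eya1 with 9.75 (the others 9.95 to 10.01). Knock-out mouse 5 had a Dach2 value of 5.59 and the others 5.17 to 5.27.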

How the results depend on the processing

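Sox6 and Prox1 kept their direction and their call in all 18 alternatives run for each regulator, and Tbx15, Vgll2, Six4, Eya1 and Mef2c kept their direction. The cause of the changes below was not tested, except that a stricter threshold calls fewer genes by construction. The fit without a limit on low values includes the genes at 0 in all mice. In it 2 regulators, 1 slow-fiber gene, 2 fast-fiber genes, 0 relatives (7 at an unadjusted p under 0.05, limma) and 1017 of 54232 genes passed. At an adjusted p under 0.01 the counts were 2, 2, 1, 0 (6 at an unadjusted p under 0.05, limma) and 994 of 14289 in the same order. Sample weights gave 4220 genes, 7 fast-fiber genes, 6 relatives and 5 MEF2 targets. Relatives numbered 2 with median centring, with quantile normalization and with the Y-linked covariate, and MEF2 targets numbered 2 with the last of these and with quantile normalization. With 1 mouse left out in turn, between 3 and 6 regulators passed, and between 1399 and 2494 of all genes tested. Only 3 regulators passed without knock-out mouse 2 or 4, where 1404 genes passed in each case. Over all omissions, 2 to 5 fast-fiber genes and 1 to 2 MEF2 targets passed (2 targets without wild-type mouse 3). Relatives numbered 1 to 4 (2 without knock-out mouse 3 or wild-type mouse 1 or 5, 4 without wild-type mouse 3). Mef2a turned with sample weights (-0.20), with the Y-linked covariate (-0.18) and without wild-type mouse 3 or 4 (range -0.084 to 0.163 over the mice left out), and Mef2d with median centring (-0.031) and when some mice were left out (-0.021 to 0.052).

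Deviations from the group means of mice with the same number correlated with 0.0299, -0.219, 0.0119, -0.15 and 0.0673. Such correlations cannot show whether these mice share a litter or a batch, which the labels do not give. With the replicate block, 1579 instead of 1956 genes and 4 of 9 regulators passed, and Six4 lost its call (limma, adjusted p = 0.0816). Six4 also lost it with the Y-linked covariate (adjusted p = 0.0626) and without the limit (0.202). The mean of the Y-linked transcripts was 10.25 to 10.57 in knock-out and 9.52 to 10.62 in wild-type mice. These transcripts were thus detected in every mouse, and the covariate does not separate the sexes. It was lowest in wild-type mice 3 (9.52) and 4 (9.88), which also had the smallest sample weights, so these alternatives are not independent of each other. Depth per mouse is unknown, so the counting error of any value could not be estimated.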
